A study of Mus musculus with 12 samples.

Results

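The 7 genes described here are Hhex, Tle3, Zbtb32, Ski, Cd38, Nt5e and Pdcd1lg2, which have been linked to memory B cells. They were found by matching their symbols to the Entrez identifiers of the count table. All 7 were present among its 27179 identifiers, and all 7 were among the 13131 genes that passed the low-count filter. They were chosen by name, with earlier results on these libraries known.

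Mice of the C57BL/6 strain were immunised with the hapten-carrier antigen NP-KLH in alum, and B cells were sorted for RNA sequencing in 6 groups of 2 pools. Germinal centre (GC) B cells taken on day 12 came from Myb fl/fl mice without cre (the Myb control, 5 mice in all) and from Myb fl/fl CD23-cre T/+ mice (the Myb knockout, 5 mice). Plasmablasts, antibody-secreting cells that still divide, were sorted on day 5 after a boost with NP-KLH in PBS from mice of the same genotypes (13 control and 9 knockout mice). GC B cells taken on day 7 came from AID-cre T/+ mice (the Moz control, 11 mice) and from Moz fl/fl AID-cre T/+ mice (the Moz knockout, 14 mice). Each pool held 2 to 8 mice, so n = 2 pools per group throughout. The labels name no ages. The Myb control lacked cre, so cre and the loss of Myb cannot be told apart, whereas both Moz groups carried AID-cre. CD23-cre acts in B cells from the follicular stage on, and AID-cre in activated B cells. Moz is the product of Kat6a, a histone acetyltransferase, and c-Myb is a transcription factor of blood progenitors and lymphocytes.

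Memory B cells leave the germinal centre as resting cells that can answer a second encounter with antigen, while plasmablasts secrete antibody. HHEX is a homeobox repressor that was found to direct GC B cells to the memory fate together with the Groucho corepressor TLE3, and SKI, a corepressor of SMAD proteins, was described as a gene that HHEX induces. ZBTB32 is a zinc finger repressor that restrains memory B cell recall responses and represses the class II transactivator gene Ciita together with BLIMP-1. On the cell surface, CD38 consumes NAD and is low on mouse GC B cells, CD73 (encoded by Nt5e) turns AMP into adenosine, and PD-L2 (encoded by Pdcd1lg2) binds the inhibitory receptor PD-1. CD73 and PD-L2 mark subsets of mouse memory B cells.

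The 12 libraries held 8285934 to 24801297 counts. Immunoglobulin genes took 65.0 to 70.0% of counts in plasmablasts and 1.59 to 9.16% in GC B cells, so levels are given as CPM after TMM scaling, that is, counts relative to the scaled library total. TMM factors were 0.392 to 0.450 in plasmablasts and 1.45 to 1.73 in GC B cells. The sorted cells carried their markers: all 7 GC genes tested, among them Bcl6, were lower and all 6 plasmablast genes, among them Prdm1 and Sdc1, were higher in control plasmablasts than in control GC B cells. Summed T cell genes stayed at 3.95 to 11.0 CPM over all libraries, NK cell genes at 0.70 to 5.37 CPM and erythroid genes, up to 2 of 4 of which were at 0, at 0.29 to 1.80 CPM. The 6 myeloid genes summed to 46.9 to 93.0 CPM in plasmablasts and 11.4 to 40.0 CPM in GC B cells, and their part in the differences between these cells was not tested. Of 4 follicular dendritic and stromal genes, up to 3 were at 0, and their sum (66.4 to 150 CPM in GC B cells, 7.28 to 10.7 CPM in plasmablasts) was nearly all Cr2, which B cells also express. Myb and Kat6a transcripts were counted in every library, and the labels do not say which exons were floxed, so whole-gene counts do not check the deletion. Myb was at 14.0 and 11.5 CPM in control and 13.0 and 11.6 CPM in knockout GC pools, and Kat6a at 82.0 and 73.4 CPM in Moz control and 66.4 and 93.6 CPM in Moz knockout pools. One library went against its label. Myb knockout GC pool 1, labelled as 2 females, had 67.2 unscaled CPM of the Y-linked gene Ddx3y, above the 17.7 of the first control GC pool, which held 1 male and 2 females, and the 0.483 and 0.323 of both second pools. The knockout values of the members and of Prdm1, Entpd1 and Il9r that rest on it are given with and without it. Without it, Myb knockout GC pool 2 alone is set against control GC pools of both sort dates. Date is then not balanced between knockout and control.

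Sequences upstream of the transcript start are shown for Hhex and Zbtb32, which fell from GC B cells to plasmablasts in both genotypes, for Ski, which rose in both, and for Pdcd1lg2, whose window had the most MYB core matches of the 7. The Nt5e window is not printed because all of it lay in annotated exons. Zbtb32 has 2 listed starts, and the window of the first is printed. They are from the RefSeq table for GRCm38.p6 (the mm10 build), run 5′ to 3′ on the gene's strand and are limited to the parts of the 250 upstream bases free of annotated exons. Capitals mark the MYB core AACNG on either strand, where overlapping matches run together; the BLIMP-1 core AGNGAAAG was also searched on both strands.
Hhex, plus strand, chr19:37434657-37434809: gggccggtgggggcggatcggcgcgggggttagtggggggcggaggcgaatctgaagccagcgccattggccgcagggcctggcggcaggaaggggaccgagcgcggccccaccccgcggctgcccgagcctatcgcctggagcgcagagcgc
Zbtb32, minus strand, chr7:30598910-30599159: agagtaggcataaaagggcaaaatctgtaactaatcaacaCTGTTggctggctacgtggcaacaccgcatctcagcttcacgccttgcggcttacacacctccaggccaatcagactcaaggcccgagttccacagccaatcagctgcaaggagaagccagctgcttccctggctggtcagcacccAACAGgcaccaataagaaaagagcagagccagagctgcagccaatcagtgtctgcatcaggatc
Ski, minus strand, chr4:155222593-155222785: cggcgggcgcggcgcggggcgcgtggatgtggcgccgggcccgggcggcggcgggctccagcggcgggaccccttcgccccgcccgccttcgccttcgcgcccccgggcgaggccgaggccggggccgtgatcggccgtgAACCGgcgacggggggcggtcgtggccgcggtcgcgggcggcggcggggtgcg
Pdcd1lg2, plus strand, chr19:29410669-29410918: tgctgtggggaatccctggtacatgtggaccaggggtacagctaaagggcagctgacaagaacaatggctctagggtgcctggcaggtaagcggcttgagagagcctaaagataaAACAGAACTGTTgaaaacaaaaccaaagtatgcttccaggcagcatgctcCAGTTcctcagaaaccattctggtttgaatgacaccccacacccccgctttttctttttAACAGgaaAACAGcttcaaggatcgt

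Over their full upstream windows, Ski (87.6% G and C, 53 CpG dinucleotides) and Hhex (76.0%, 32 CpG) were far richer in G and C than the median window (52.4%, 6 CpG). Zbtb32 (53.6%, 5 CpG) and Pdcd1lg2 (48.4%, 3 CpG) lay near that median. AACNG matched 0 times in the Hhex window, 1 time in Ski, 2 times in Zbtb32 and 6 times in Pdcd1lg2. The windows of Cd38, Tle3 and Nt5e had 4, 2 and 2 matches. At least 1 match occurs in 74.2% of 32851 windows of this length, so a match is common. How many windows hold 6 matches was not counted. AGNGAAAG, present in 7.30% of windows, matched in no window of the 4 printed genes and 1 time in that of Tle3. At the second start of Zbtb32 (chr7:30592943-30593192) the window held 51.2% G and C, 2 CpG, 1 match of AACNG and 0 of AGNGAAAG. These matches are descriptions of letters, not binding sites.

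The members changed rank between GC B cells and plasmablasts. Per kilobase of transcript, Nt5e led in Myb control GC B cells at 10.8 ± 0.656 CPM per kb (SD, n = 2), ahead of Cd38 (5.46 ± 0.720), Hhex (5.45 ± 1.27), Tle3 (4.83 ± 2.03) and Zbtb32 (3.60 ± 0.858). Pdcd1lg2 (1.95 ± 0.221) and Ski (0.873 ± 0.338) were the lowest there. Cd38, Hhex, Tle3 and Zbtb32 each lay within the spread of its neighbour in that order. In control plasmablasts the order ran from Tle3 (9.97 ± 1.28 CPM per kb) over Cd38 (7.87 ± 0.782), Ski (4.22 ± 0.676), Pdcd1lg2 (2.41 ± 0.175) and Nt5e (0.764 ± 0.159) to Zbtb32 (0.354) and Hhex (0.329 ± 0.035), the last pair close together. In Moz control GC B cells, Cd38 (9.53 ± 3.36 CPM per kb), Hhex (6.28 ± 1.44), Tle3 (5.62 ± 0.027) and Nt5e (4.90 ± 0.865) came first, each within the spread of its neighbour, then Zbtb32 (2.77 ± 0.418), Pdcd1lg2 (1.62 ± 0.256) and Ski (0.707 ± 0.004). In knockout groups, Nt5e (11.4 ± 2.26 CPM per kb) led in Myb knockout GC B cells, with Cd38 (10.7 ± 5.34) within its spread. Cd38 (9.72 ± 2.78) and Tle3 (9.20 ± 1.81) led in Myb knockout plasmablasts, and Cd38 (12.4 ± 0.666) led in Moz knockout GC B cells. Ski was the lowest in both GC knockout groups (0.973 ± 0.544 and 1.08 ± 0.016), and Hhex in knockout plasmablasts (0.142 ± 0.110).

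**Figure D1:**
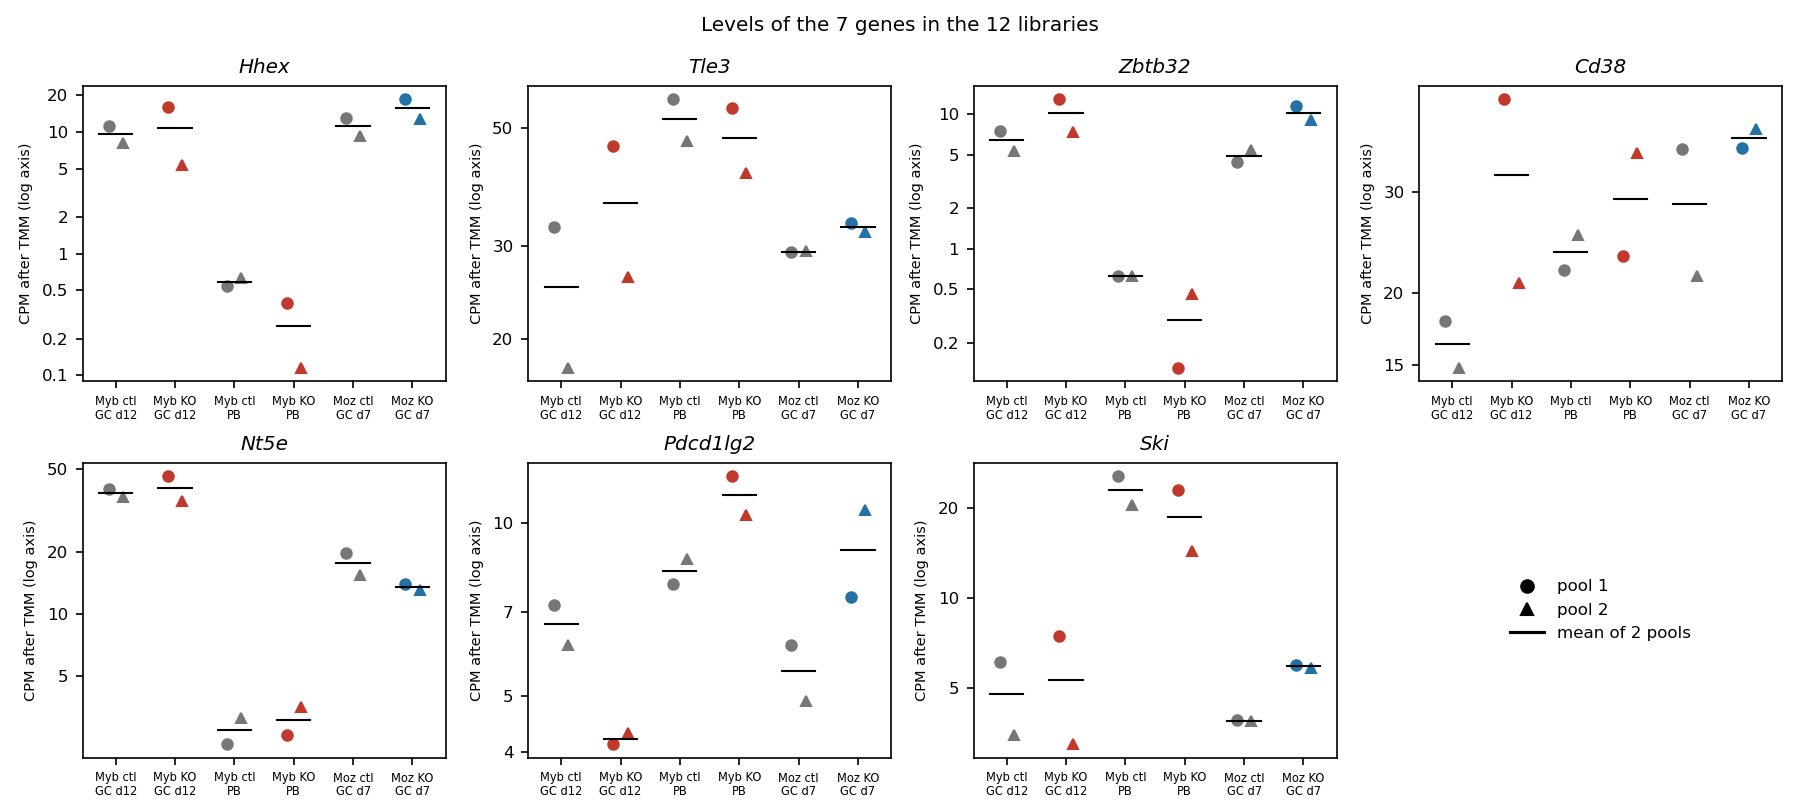
Level of each of the 7 genes in each of the 12 libraries, as CPM after TMM scaling on log axes that differ between panels; circles are pool 1, triangles pool 2 and lines the mean of 2 pools, for Myb control, Myb knockout, Moz control (ctl) and Moz knockout (KO) groups. Hhex, Zbtb32 and Nt5e sat lower in all 4 plasmablast libraries than in the 8 GC libraries, and Ski sat higher.

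In control cells, Hhex, Zbtb32 and Nt5e fell and Tle3 and Ski rose from GC B cells to plasmablasts. In all, 5 members passed the test, 2 upward and 3 downward, as 53.2% of all tested genes did in this comparison (25.0% upward, 28.1% downward), so the members' share was near that of all genes. The groups of all 7 members did not overlap, 4 being higher and 3 lower in both plasmablast pools, as 34.4% and 41.3% of all genes were. The median log2 difference of the 7 members was 0.30 against -0.17 over all genes, and ranged from 0.17 to 0.41 over the 4 fits that left out 1 pool each. The same count, 2 up and 3 down, was reached in Myb knockout cells, where 51.6% of genes passed (24.4% up, 27.2% down); there 2 members were higher and 3 lower without overlap, beside 32.9% and 41.0% of all genes. GC B cells came from day 12 after immunisation in alum and plasmablasts from day 5 after a boost in PBS, sorted on different dates. Cell type, boost and date therefore cannot be told apart, and "rose" and "fell" name differences between these groups. In bulk libraries, fewer cells of a type and less RNA per cell cannot be told apart either. When TMM scaling left out immunoglobulin genes, the median of all genes moved from -0.17 to -0.06 in control and to -0.04 in knockout cells, and every member kept its direction and its side of the threshold.

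Among the transcription regulators, Hhex was at 11.2 and 8.06 CPM in the Myb control GC pools and at 0.539 and 0.628 CPM in the control plasmablast pools. It was thus low in both plasmablast pools, with 6 and 5 counts. The log2 difference was -4.05 (SE 0.62, edgeR adjusted p = 1.85e-04), and the ratio of the scaled counts was 17.0-fold (95% interval 9.32 to 34.4, counting error only). In knockout cells Hhex was at 16.1 and 5.34 CPM in GC pools and at 0.389 and 0.115 CPM in plasmablast pools, where 3 and 1 counts were seen. The difference was -5.42 on the log2 scale (SE 0.72, edgeR adjusted p = 7.28e-05), and without Myb knockout GC pool 1 it was -4.42.

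Zbtb32 had a like profile. Control GC pools were at 7.47 and 5.32 CPM and both control plasmablast pools near 0.63 CPM (7 and 5 counts), a log2 difference of -3.34 (SE 0.46, edgeR adjusted p = 8.09e-05) and a 10.3-fold ratio (95% interval 5.75 to 20.3, counting error only). Knockout GC pools were at 12.9 and 7.40 CPM and knockout plasmablast pools at 0.130 and 0.459 CPM (1 and 4 counts). That difference was -5.03 (SE 0.52, edgeR adjusted p = 9.63e-06), and -4.59 without Myb knockout GC pool 1. The groups did not overlap in either genotype.

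Tle3, the corepressor that partners HHEX, went the other way in control cells: 32.6 and 17.7 CPM in GC pools against 56.6 and 47.2 CPM in plasmablast pools. Its rise was 1.05 on the log2 scale (SE 0.31, edgeR adjusted p = 0.0151). This call rested on single libraries: it was 0.65 (edgeR adjusted p = 0.129) without Myb control GC pool 2 and 0.90 (edgeR adjusted p = 0.0854) without Myb control plasmablast pool 1. In knockout cells, GC pools were at 46.1 and 26.2 CPM and plasmablast pools at 54.5 and 41.2 CPM, which overlapped, with a difference of 0.40 (SE 0.31, edgeR adjusted p = 0.302). Without Myb knockout GC pool 1 it was 0.85 (SE 0.34). The replicate block pairs knockout and control pools sorted on the same dates. With it, that difference was 0.45 (SE 0.12, edgeR adjusted p = 0.00496) in a fit that called 66.7% of genes. No plasmablast pool is paired with a GC pool in that fit. The difference between pool 1 and pool 2 of each cell type is left out of its SE, so this p-value understates the spread.

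Ski was low in every GC library and high in every plasmablast library. Control GC pools were at 6.08 and 3.47 CPM and control plasmablast pools at 25.7 and 20.5 CPM, a rise of 2.27 on the log2 scale (SE 0.39, edgeR adjusted p = 4.92e-04) or 4.81-fold. In knockout cells the pools were at 7.42 and 3.22 CPM in GC and 23.0 and 14.3 CPM in plasmablasts, a rise of 1.80 (SE 0.39, edgeR adjusted p = 0.00227), and of 2.52 without Myb knockout GC pool 1. Hhex and Ski thus differed in opposite directions between the cell types in both genotypes.

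Among the surface molecules, Nt5e was at 40.2 and 36.8 CPM in control GC pools and at 2.34 and 3.14 CPM in control plasmablast pools. It fell by 3.83 on the log2 scale (SE 0.27, edgeR adjusted p = 4.95e-07), a 14.2-fold difference. The knockout pools, at 46.4 and 34.9 CPM in GC B cells and 2.60 and 3.56 CPM in plasmablasts, differed by -3.71 (SE 0.27, edgeR adjusted p = 7.74e-07), and by -3.51 without Myb knockout GC pool 1. Cd38 was at 17.9 and 14.8 CPM in control GC pools and 21.9 and 25.2 CPM in control plasmablast pools, a difference of 0.52 (SE 0.35, edgeR adjusted p = 0.232). In knockout cells its pools overlapped, at 43.4 and 20.8 CPM in GC B cells and 23.2 and 35.0 CPM in plasmablasts, with a difference of -0.14 (SE 0.35, edgeR adjusted p = 0.750). Without Myb knockout GC pool 1 that difference was 0.47.

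Pdcd1lg2 passed the test between the cell types in knockout cells. Its knockout pools were at 4.12 and 4.31 CPM in GC B cells and at 12.1 and 10.3 CPM in plasmablasts, a rise of 1.41 on the log2 scale (SE 0.26, edgeR adjusted p = 8.34e-04) or 2.65-fold, and of 1.36 without Myb knockout GC pool 1. In control cells the pools were at 7.19 and 6.13 CPM and at 7.81 and 8.66 CPM, a difference of 0.30 (SE 0.26, edgeR adjusted p = 0.346). The test of the difference between these 2 differences gave 1.11 (SE 0.37, 95% interval 0.30 to 1.91), with an unadjusted p of 0.0113 and an edgeR adjusted p of 0.946, so it was not called. Leaving out Myb knockout GC pool 1 gave 1.07 (SE 0.44).

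**Figure D2:**
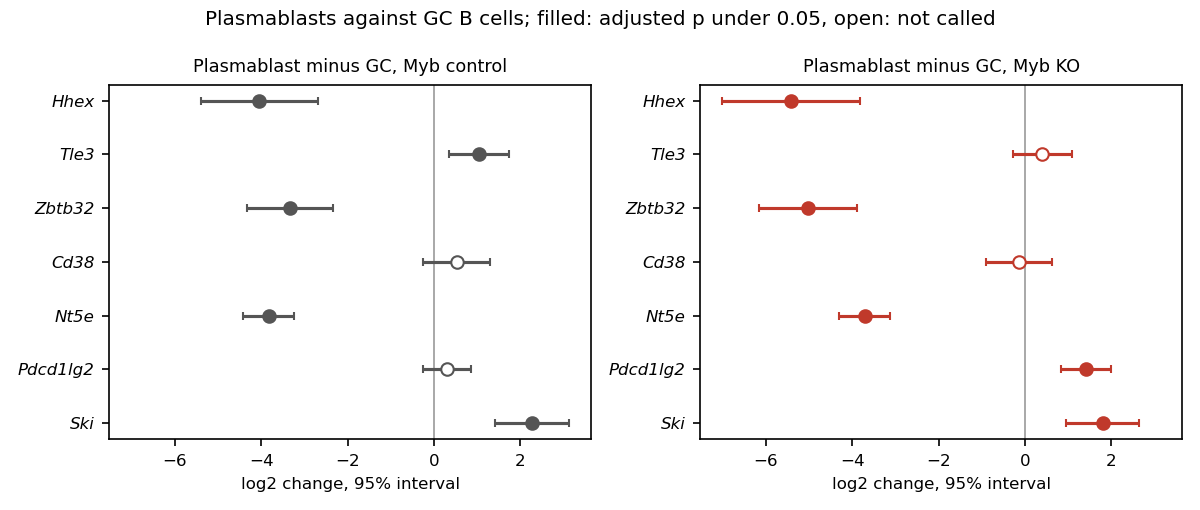
Log2 difference between plasmablasts and GC B cells for each of the 7 genes in Myb control (left) and Myb knockout (right) cells, with 95% intervals from the edgeR fit of 2 pools per group; filled points have an adjusted p under 0.05. Hhex, Zbtb32 and Nt5e lie at the left in both panels, from -3.34 to -5.42, and Ski at the right at 2.27 and 1.80.

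No member was called between Myb knockout and control GC B cells in the main fit, which does not pair pools by date. There edgeR called 0.259% of genes (0.236% higher, 0.0228% lower), and 755 genes had an unadjusted p under 0.05. With the replicate block, which pairs them, edgeR called 2.42% of genes, Tle3 among them. In the main fit the members' median log2 difference was 0.16 against 0.00 over all genes. It was -0.14 without Myb knockout GC pool 1 and ranged from -0.14 to 0.73 over the 4 fits that left out 1 pool each. Cd38 had the largest difference: 43.4 and 20.8 CPM in knockout against 17.9 and 14.8 CPM in control pools. Both knockout pools were above both controls, by 0.97 on the log2 scale (SE 0.35, 95% interval 0.21 to 1.74, edgeR adjusted p = 0.531). Within the pairs sorted on one date, Cd38 was 2.43 and 1.40 times the control, and without Myb knockout GC pool 1 the difference was 0.35 (edgeR adjusted p = 0.972). With no low-count filter Cd38 was called, at 0.96 (edgeR adjusted p = 0.0153).

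Pdcd1lg2 moved the other way in the same cells. Knockout pools were at 4.12 and 4.31 CPM and control pools at 7.19 and 6.13 CPM, so the groups did not overlap. The difference was -0.66 (SE 0.26, 95% interval -1.23 to -0.09, edgeR adjusted p = 0.651), and -0.63 (SE 0.34, edgeR adjusted p = 0.972) without Myb knockout GC pool 1, with knockout at 0.572 and 0.704 times the control within dates. Cd38 and Pdcd1lg2 were the members with groups that did not overlap, 1 higher and 1 lower; among all genes 13.8% were higher and 11.8% lower in this way.

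The pairs were most alike for Tle3, at 1.42 and 1.49 times the control. Its difference was 0.53 (SE 0.31, 95% interval -0.16 to 1.21, edgeR adjusted p = 1.00). With the replicate block it was 0.53 (SE 0.12, edgeR adjusted p = 0.0371), a call in a fit that called 2.42% of genes. Without Myb knockout GC pool 1 the unpaired difference was 0.06, with knockout pool 2 set against control pools of both dates. The second pair alone gave a log2 ratio of 0.57. Zbtb32 was at 1.72 and 1.39 times the control within dates, with a difference of 0.66 (SE 0.34, 95% interval -0.07 to 1.40, edgeR adjusted p = 1.00). Without Myb knockout GC pool 1 that difference was 0.21, and the second pair alone gave a log2 ratio of 0.47.

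Hhex, Nt5e and Ski each had pairs on both sides of 1. Hhex was at 1.43 and 0.663 times the control, with an interval of -0.80 to 1.11 on the log2 scale. Ski was at 1.22 and 0.928 times (interval -0.71 to 1.03) and Nt5e at 1.15 and 0.948 times (interval -0.40 to 0.56). Without Myb knockout GC pool 1 the differences were -0.85 for Hhex, -0.57 for Ski and -0.14 for Nt5e, against 0.16, 0.16 and 0.08 with it. That fit set knockout pool 2 against control pools of both dates, so date enters these differences. Within the second pair alone, the log2 ratios were -0.59 for Hhex, -0.11 for Ski and -0.08 for Nt5e. Myb knockout GC pool 1 was the higher of the knockout pools in 6 members, by 3.02 times for Hhex, 2.31 times for Ski and 2.09 times for Cd38. The control pool of the same date was also the higher control pool for every member. It was higher by 1.39 times for Hhex, 1.75 times for Ski and 1.21 times for Cd38.

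Prdm1, the gene of BLIMP-1 and a plasmablast marker, was higher in the same Myb knockout GC cells, at 21.8 and 14.9 CPM against 3.21 and 4.03 CPM (log2 2.34, SE 0.35, edgeR adjusted p = 0.0248). Without Myb knockout GC pool 1 it was at 2.04 and no longer called (SE 0.38, edgeR adjusted p = 0.130). The 6 plasmablast markers summed to 1310 to 1841 CPM in knockout and 924 to 1474 CPM in control GC pools, far from the 104336 to 143177 CPM of plasmablasts. The 6 naive or follicular B cell markers summed to 206 to 402 CPM in knockout and 369 to 425 CPM in control pools. Their part in the members' differences was not tested.

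In plasmablasts no member was called between Myb knockout and control, in a fit that called 0.0381% of genes (0.00762% higher, 0.0305% lower; 496 had an unadjusted p under 0.05). The median difference was -0.12 against 0.01 over all genes, and -0.30 to -0.015 when 1 of the 4 pools was left out. Pdcd1lg2 was at 12.1 and 10.3 CPM in knockout and 7.81 and 8.66 CPM in control pools, which did not overlap, with a difference of 0.44 (SE 0.26, 95% interval -0.12 to 1.01). Hhex, at -1.22 (interval -3.56 to 1.13), and Zbtb32, at -1.03 (interval -2.60 to 0.54), were lower in both knockout pools. They rested on 4 against 11 and 5 against 12 counts. Both intervals span no change, so such low counts do not settle the direction. One member was higher and 2 were lower without overlap, against 13.6% and 11.6% of all genes. The remaining intervals were -0.80 to 0.56 for Tle3, -0.46 to 1.08 for Cd38, -0.47 to 0.86 for Nt5e and -1.12 to 0.50 for Ski.

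Whether Myb loss acted differently in the 2 cell types was tested directly, and no member was called (0.00762% of genes were, and 489 genes had an unadjusted p under 0.05). After Pdcd1lg2, the smallest unadjusted p was that of Zbtb32, 0.0537, for a difference of -1.70 (SE 0.79, 95% interval -3.43 to 0.03). Leaving out Myb knockout GC pool 1 gave -1.24 (SE 0.76). Tle3 was at -0.65 (SE 0.44) and Cd38 at -0.67 (SE 0.49), and these moved to -0.18 (SE 0.42) and -0.039 (SE 0.44) without that pool.

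In GC B cells on day 7, 5 of the 7 members were higher in both Moz knockout pools than in both controls and 1 was lower, but no member was called. Such groups were found for 13.3% of all genes upward and 13.4% downward. The edgeR test called 0% of genes here, with 315 genes at an unadjusted p under 0.05; DESeq2 called 12. The members' median was 0.49 against -0.01 over all genes, and it was 0.75 without Moz control pool 1 and 0.27 without Moz control pool 2.

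Zbtb32 differed most with Moz loss. Knockout pools were at 11.5 and 9.00 CPM and control pools at 4.39 and 5.43 CPM, a difference of 1.06 on the log2 scale (SE 0.33, 95% interval 0.34 to 1.78, unadjusted p = 0.0078, edgeR adjusted p = 1.00). It was 2.63 and 1.66 times the control within dates, and the adjusted p with the replicate block was 0.0679. Pdcd1lg2 was at 7.42 and 10.5 CPM in knockout and 6.14 and 4.90 CPM in control pools, a difference of 0.70 (SE 0.24, interval 0.17 to 1.24) with an unadjusted p of 0.0145 and an edgeR adjusted p of 1.00.

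Ski and Tle3 had tight Moz pools. Ski was at 5.95 and 5.83 CPM in knockout and 3.88 and 3.85 CPM in control pools, 1.53 and 1.52 times the control within dates (log2 0.61, interval -0.21 to 1.43). Tle3 was at 33.1 and 31.9 CPM against 29.1 and 29.3 CPM (log2 0.15, interval -0.52 to 0.82). Cd38 was higher in both knockout pools, at 35.8 and 38.6 CPM against 35.7 and 21.4 CPM, but by next to nothing in the first pair (1.00 times) and by 1.80 times in the second.

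Hhex was at 18.5 and 12.8 CPM in Moz knockout and 12.9 and 9.31 CPM in Moz control pools. These groups overlapped, although the within-date ratios were alike at 1.43 and 1.38 (log2 0.49, interval -0.43 to 1.42). Nt5e was the member that was lower in both knockout pools, at 13.9 and 13.1 CPM against 19.7 and 15.4 CPM (log2 -0.38, interval -0.86 to 0.10). The 6 plasmablast markers summed to 5965 to 7128 CPM in Moz knockout and 4589 to 4835 CPM in Moz control pools, and the 6 naive or follicular markers to 532 to 562 CPM and 455 to 528 CPM. The 7 GC markers summed to 958 to 1042 CPM in Moz knockout and 1162 to 1210 CPM in Moz control pools, and the B lineage markers to 3530 to 3732 CPM and 3768 to 4060 CPM. Their part in the members' differences was not tested.

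**Figure D3:**
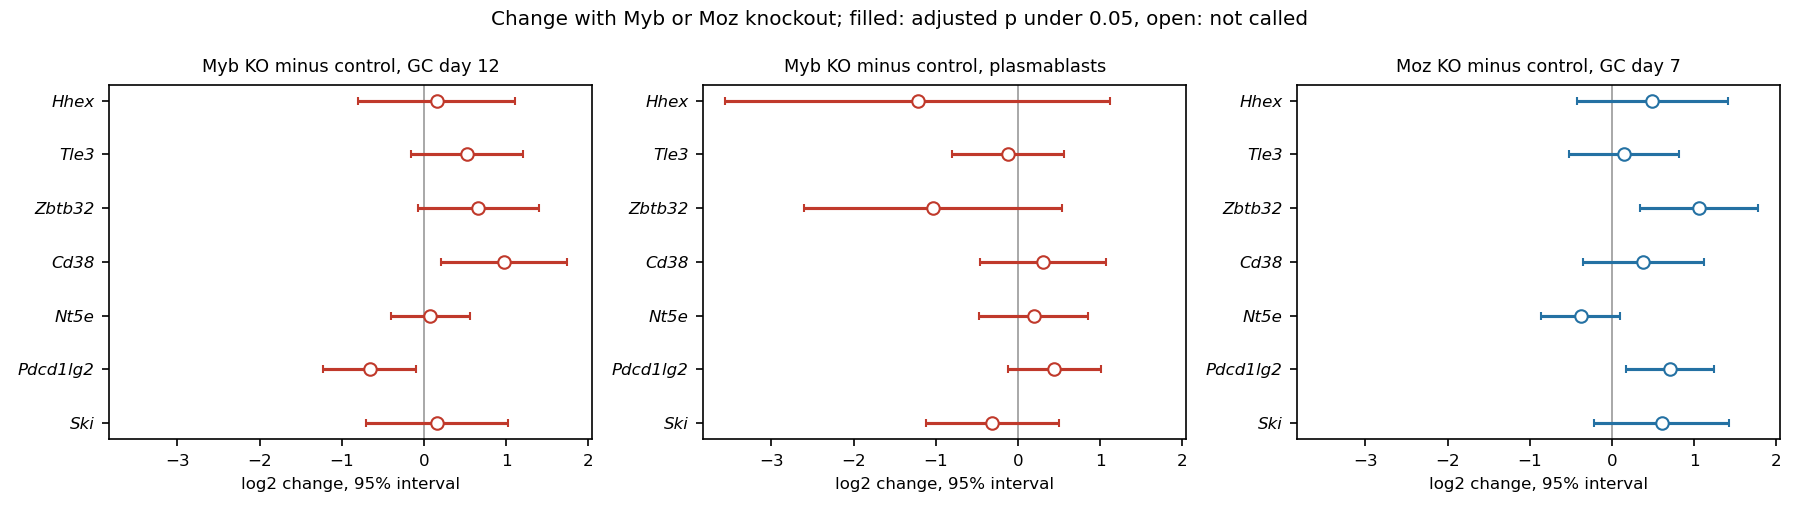
Log2 difference between knockout and control for each of the 7 genes, with 95% intervals from the edgeR fit (2 pools per group): Myb in GC B cells on day 12 (left), Myb in plasmablasts (middle) and Moz in GC B cells on day 7 (right). All points are open because none had an adjusted p under 0.05 in this fit, which does not pair pools by date. The intervals of Hhex and Zbtb32 in plasmablasts are the widest.

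**Figure D4:**
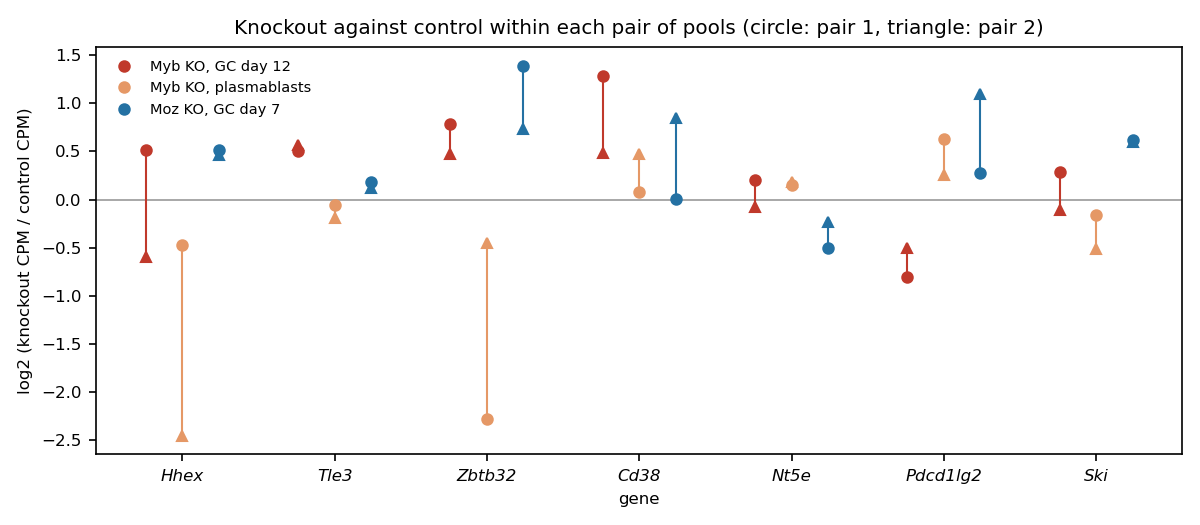
Log2 ratio of knockout to control CPM for each gene within each pair of pools sorted on the same dates; circles are pair 1 and triangles pair 2, and a line joins both pairs of an experiment. The 2 pairs of Tle3 in Myb GC B cells (1.42 and 1.49 times) nearly coincide, whereas those of Hhex in Myb GC B cells lie on opposite sides of 0.

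Control GC B cells were also compared between experiments, day 7 of the Moz experiment against day 12 of the Myb experiment. Day, cre genotype and experiment differ together here and cannot be told apart. Nt5e was the member that was called: it was at 19.7 and 15.4 CPM on day 7 and 40.2 and 36.8 CPM on day 12, and was lower on day 7 by 2.20-fold (log2 -1.13, SE 0.22, edgeR adjusted p = 0.0309). In this comparison 1.38% of genes were called, 1.08% higher and 0.297% lower. The call was lost without any 1 of the 4 pools, with adjusted p values of 0.0886 to 0.285, and in a fit of these groups alone (0.0769), while the difference stayed between -0.96 and -1.32. Cd38 was at 35.7 and 21.4 CPM on day 7 against 17.9 and 14.8 CPM (log2 0.80, SE 0.35, edgeR adjusted p = 0.585). Groups did not overlap for Cd38 (higher) and Nt5e (lower), as for 19.2% and 14.9% of all genes. The plasmablast markers summed higher on day 7 (4589 to 4835 CPM) than on day 12 (924 to 1474 CPM). Their part in these differences was not tested.

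CD73 works after CD39, the product of Entpd1, which makes AMP from ATP and ADP. Their transcripts differed in opposite directions. Entpd1 was at 4.12 and 1.93 CPM in Myb control GC pools and at 335 and 263 CPM in control plasmablasts, a rise of 6.61 on the log2 scale (SE 0.48, edgeR adjusted p = 6.21e-07). It was also higher on day 7, at 15.4 and 24.5 CPM (log2 2.70, SE 0.42, edgeR adjusted p = 0.0114). In Myb knockout GC pools Entpd1 was at 8.41 and 5.48 CPM, 1.19 above control (SE 0.43, edgeR adjusted p = 0.543), 0.84 (SE 0.50, edgeR adjusted p = 0.972) without Myb knockout GC pool 1, and 1.21 (SE 0.19, edgeR adjusted p = 0.00613) with the replicate block. Of the 5 tested genes of extracellular adenosine, Entpd1 and the adenosine kinase gene Adk (1.63) rose in control plasmablasts. The adenosine transporter gene Slc29a1 (-3.11) and the adenosine deaminase gene Ada (-0.61) fell there, and the receptor gene Adora2a (0.95) was not called. In that comparison 25.0% of all genes rose and 28.1% fell.

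**Figure D5:**
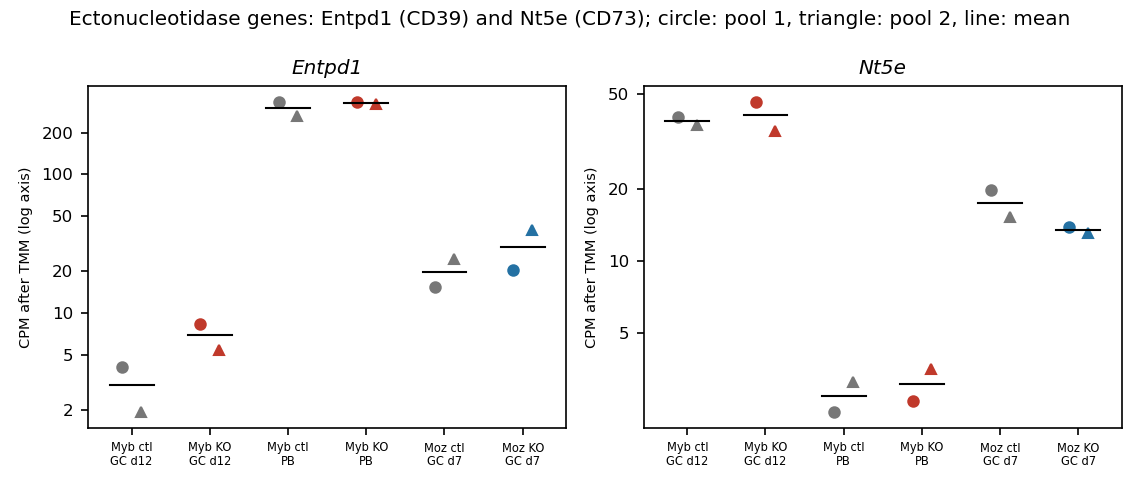
CPM after TMM scaling (log axes) of Entpd1 (CD39) and Nt5e (CD73) in the 12 libraries; circles are pool 1, triangles pool 2, lines the mean of 2 pools. Entpd1 has its highest levels (263 CPM or more) and Nt5e its lowest (3.56 CPM or less) in plasmablasts, and in day 12 GC B cells Entpd1 is at its lowest and Nt5e at its highest.

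SKI binds SMAD2, SMAD3 and SMAD4 and blocks transcription that follows TGF-beta. Of 11 tested genes of SKI and TGF-beta signalling, 3 rose and 6 fell in control plasmablasts, where 25.0% of all genes rose and 28.1% fell. Smad3 (3.10, SE 0.27), the SKI relative gene Skil (1.56, SE 0.19) and Smad5 (0.78, SE 0.22) rose with Ski, while Smad1 (-1.63), the ligand gene Tgfb1 (-1.54), the inhibitory Smad7 (-1.32), Smad2 (-1.31) and both receptor genes Tgfbr2 (-0.96) and Tgfbr1 (-0.69) fell. In knockout cells 3 rose and 5 fell (24.4% and 27.2% of all genes did), and 3 rose and 4 fell without Myb knockout GC pool 1. None of the 11 was called in a knockout comparison. Of 7 tested Groucho and other corepressor genes, Tle2 rose (2.68, SE 0.67, from a mean of 0.19 to 1.22 CPM) while Tle1, Tle4 and Tle5 were at -0.01, -0.24 and -0.03 and were not called.

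The class II transactivator list holds Ciita, which ZBTB32 represses with BLIMP-1, and 5 targets of its product. Of these 6 genes, 5 fell in control and in knockout plasmablasts, where 28.1% and 27.2% of all genes fell. In control cells these were Ciita (-6.96), H2-Aa (-3.71), H2-DMa (-3.41), H2-Eb1 (-2.94) and H2-Ab1 (-2.22), while Cd74 was not called. Zbtb32 itself was lower in the same cells, and Prdm1 higher, at 237 and 173 CPM against 3.21 and 4.03 CPM. None of the 6 was called in a knockout comparison. Among 4 PD-1 ligand and receptor genes, 1 rose in control plasmablasts, where 25.0% of all genes rose. It was Cd274, which encodes the other PD-1 ligand PD-L1, from 7.47 and 6.05 CPM to 69.3 and 67.0 CPM (log2 3.33, SE 0.36, edgeR adjusted p = 1.40e-05). Pdcd1lg2 was not called there. Of 6 NAD genes around CD38, 2 fell in control plasmablasts, where 28.1% of all genes fell. These were Nampt (-0.87), which makes an NAD precursor, and Parp1 (-0.87), which consumes NAD. The CD38 relative Bst1 was at 0.49 and 0.24 CPM in control GC pools.

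A list of 15 other memory B cell associated genes was tested in full. Of these, 4 rose in control plasmablasts, namely Bcl2 (2.71), which encodes a survival protein, Bmi1 (2.24), a Polycomb gene, Cd44 (2.22), an adhesion receptor gene, and Klf3 (1.63). Another 4 fell (25.0% and 28.1% of all genes rose and fell): Bach2 (-5.97), which encodes a repressor of plasma cell genes, the chemokine receptor gene Ccr6 (-3.30), the interleukin 9 receptor gene Il9r (-2.85) and Klf2 (-1.85). In knockout cells 3 rose and 4 fell, beside 24.4% and 27.2% of all genes, and 5 rose and 4 fell without Myb knockout GC pool 1. None of the 15 was called in a knockout comparison; their medians were 0.37 (Myb, GC), -0.10 (Myb, plasmablasts) and 0.49 (Moz), beside 0.00, 0.01 and -0.01 over all genes. The first of these was -0.50 without Myb knockout GC pool 1. Il9r was at 48.4 and 21.2 CPM in Myb knockout and 18.8 and 10.4 CPM in Myb control GC pools (log2 1.25, SE 0.38, edgeR adjusted p = 0.347). It was at 0.53 (SE 0.37, edgeR adjusted p = 0.972) without Myb knockout GC pool 1, and was called with the replicate block at 1.21 (SE 0.16, edgeR adjusted p = 0.00197).

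The genes whose levels most resembled each member were ranked by Pearson's r of log2 CPM over the 12 libraries, among 11759 genes. All libraries share the contrast between GC B cells and plasmablasts, so these values are descriptions. Hhex was followed most closely by Nckipsd (r = 0.990) and Pik3c2b (0.986), Zbtb32 by Dhx58 (0.979) and Niban3 (0.976), and Nt5e by Rflna (0.989) and Dusp6 (0.984), all lower in plasmablasts. Ski was followed by Plekhm2 (0.988) and Rnf123 (0.987) and Tle3 by Fan1 (0.953) and Bod1l (0.947), all higher there. Pdcd1lg2 and Cd38 had looser matches, Rhd (0.896) and Bmf (0.890) for Pdcd1lg2, and Il18r1 (0.824) and Dglucy (0.821) for Cd38. Some of these were hardly expressed: group means were 0.12 to 0.38 CPM for Il18r1, 0.09 to 1.16 CPM for Rhd and 0.21 to 1.66 CPM for Dglucy.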

How the data were processed

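RNA of sorted mouse B cells was sequenced in 12 libraries. The values are raw read counts per Entrez gene that the authors deposited, made with featureCounts against the mm10 build according to the submitters' processing notes. No aligner or strand setting is named in the sources used here. The deposited table also gives gene length in bases, used for levels per kilobase. Symbols and coordinates came from RefSeq for GRCm38.p6. No member shared exon bases with another gene in the GENCODE annotation (0 bases).

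One edgeR 4.0.16 quasi-likelihood fit (R 4.3.3, robust, legacy estimation, TMM scaling, filterByExpr with minimum count 10) held 6 group means over all 12 libraries, with 6 residual degrees of freedom. Tests are two-sided, with Benjamini-Hochberg adjustment over 13131 genes per comparison and a limit of 0.05 ("called"). SE is that of the log2 difference. Alternatives used DESeq2 1.42.0, limma-voom 3.58.1, other scaling and filters, and a replicate block. The labels give same-numbered knockout and control pools the same dates, so the numbers pair them; their deviations correlated at 0.600, 0.453 and 0.361. The 7 members and all lists were chosen with earlier results of these data known. All members are named, with genes called in a knockout comparison, up to 4 further genes per list by size of change in control plasmablasts, and the 2 closest genes per member; other list genes were named after their values were seen. Some list genes are not reported here. The fit was also run on simulated counts with the same dispersion for every gene and no date effect. Those settings differ from these libraries, so that run does not show how the fit behaves on them. Nothing says that pools hold separate litters, so p-values refer to spread between pools, not between litters. That spread was estimated within groups over all 12 libraries and drawn toward that of other genes. It is not the spread of only the pools compared. Depth per library was 8285934 to 24801297 counts, and pools of one group differed by 28.2 to 103 in chi-square over its degrees of freedom, far more than counting error gives.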

Additional observations from a re-analysis of the deposited data

How the results depend on the processing

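Over 49 combinations of member and comparison, 656 alternative values were computed: 625 kept their direction and side of the threshold, 7 lost a call, 3 gained one and 21 changed sign. None of the sign changes involved a called value in either fit, and 20 of them came from leaving out 1 pool; where this leaves 1 pool in a group, it is assumed to vary like the other groups. The exception was Hhex in Myb GC B cells, at -0.011 with limma-voom. Leaving out single pools moved the log2 difference between the following bounds. In Myb GC B cells these were -0.85 and 0.73 for Hhex, -0.57 and 0.63 for Ski and -0.14 and 0.26 for Nt5e. In Myb plasmablasts they were -0.30 and 0.059 for Tle3, -0.031 and 0.60 for Cd38 and -0.069 and 0.43 for Nt5e. For the difference of Myb effects they were -0.14 and 0.36 for Nt5e and -0.94 and 0.26 for Ski. For plasmablasts against GC B cells without Myb they were -0.58 and 0.47 for Cd38. For day 7 against day 12 they were -0.050 and 0.46 for Hhex, -0.17 and 0.73 for Tle3 and -0.66 and 0.16 for Ski.

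The count of called members in Myb GC B cells rose from 0 to 1 with the replicate block (Tle3) and to 1 with no low-count filter (Cd38). For day 7 against day 12 it fell from 1 to 0 (Nt5e) with only the groups compared, and to 0 without any 1 of the 4 pools (0 in each case). The replicate block changed no other member's call except Tle3 between plasmablasts and GC B cells without Myb. The bias-adjusted quasi-likelihood fit, and the values of the other lists without Myb knockout GC pool 1, were added after the data were seen. DESeq2 gave no adjusted p for members in the Moz comparison.

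Counts of called genes over the alternatives ran from 0 to 320 for Myb GC B cells (34 in the reported fit), 0 to 104 for Myb plasmablasts (5), 0 to 55 for Moz (0), 0 to 136 for the difference of Myb effects (1) and 19 to 719 for day 7 against day 12 (181). The causes were not tested. Low counts limit Hhex and Zbtb32 in plasmablasts, which rest on 1 to 7 counts per pool.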
